A study of Mus musculus with 2 samples.

Results

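Desmin (Des), vimentin (Vim), the myotonic dystrophy protein kinase gene Dmpk, the L-type calcium channel gene Cacna1c and the sodium/calcium exchanger genes Slc8a1 and Slc24a3 were examined in MERSCOPE images of mouse intestine. They are 6 of the 140 genes on the panel and were chosen by name for their roles in muscle filaments and calcium handling. MERSCOPE images single transcripts in a tissue section and assigns them to cells by a boundary stain, so a value is the number of transcripts of a gene within a cell outline. Duodenum and colon came from 1 male and 1 female C57Bl6 mouse aged 6 to 10 weeks, with no treatment or genetic change named in the labels, and each animal gave 2 imaged regions. Nothing in the labels ties a region number to duodenum or to colon. Regions therefore carry their numbers and were not matched between the animals.

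Des and Vim encode type III intermediate filament proteins. Desmin links the contractile apparatus of smooth, skeletal and cardiac muscle cells, and vimentin is the filament of fibroblasts, endothelium and other mesenchymal cells. Dmpk is a serine/threonine kinase named for the disease in which its transcript carries a repeat expansion, and it is strongly expressed in muscle. In gut smooth muscle, calcium enters through L-type channels, whose pore is encoded by Cacna1c. Sodium/calcium exchange returns calcium to the outside, by Slc8a1 without potassium and by Slc24a3 together with potassium.

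RefSeq promoter sequences on build GRCm38.p6 were found for 6 of 6 genes, as 9 entries. The 250 bases before the start of Des, Dmpk and Vim are shown because Des and Vim are the filaments set against each other and Dmpk is the kinase compared between their cells. Des is on the plus strand at chr1:75360042-75360291, Dmpk on the plus strand at chr7:19083608-19083857 and Vim on the plus strand at chr2:13574061-13574310. Capitals mark the E-box CANNTG, whose letters read alike on both strands, in Des and Dmpk, and the TATAAA box in Vim.
Des: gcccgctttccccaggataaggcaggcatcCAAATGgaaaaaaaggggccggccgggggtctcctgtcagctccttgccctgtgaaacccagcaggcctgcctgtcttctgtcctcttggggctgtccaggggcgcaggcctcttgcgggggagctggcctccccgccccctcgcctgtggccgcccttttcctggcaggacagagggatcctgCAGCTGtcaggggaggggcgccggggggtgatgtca
Dmpk: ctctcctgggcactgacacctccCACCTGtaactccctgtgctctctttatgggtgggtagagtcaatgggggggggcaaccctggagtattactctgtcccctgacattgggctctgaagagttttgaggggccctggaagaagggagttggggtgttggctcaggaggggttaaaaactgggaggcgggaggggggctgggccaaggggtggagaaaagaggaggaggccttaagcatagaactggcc
Vim: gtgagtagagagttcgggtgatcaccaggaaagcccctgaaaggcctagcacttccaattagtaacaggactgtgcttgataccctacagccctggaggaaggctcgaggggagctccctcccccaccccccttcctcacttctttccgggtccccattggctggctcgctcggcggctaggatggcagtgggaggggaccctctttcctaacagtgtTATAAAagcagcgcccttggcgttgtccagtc
The E-box was found 2 times before Des, once before Dmpk and not before Vim, and 66.2% of 32851 promoters of this length hold it. The CAGCTG form, 36 bases before the Des start, is found in 13.001% of promoters. TATAAA on either strand is found in 12.4%, and among the 9 entries it stood before Vim alone, 32 bases before the start. The CArG box, the motif of serum response factor, was in 1.47% of all promoters and in 0 of the 9. These matches are letters in a window and not measured sites.

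The tables differed widely in depth, and female region 1 carries nearly all values below. It held 13707 cells and 45942 panel counts, against 4068 to 7775 cells and 582 to 4288 counts in the other regions. The median cell held 1 count there and 0 elsewhere. No cell identifier was shared between tables. Each table also holds 40 blank barcodes, which match no gene, and a gene was read as detected where its count was above the highest blank of its region. Bracketed ranges are exact 95% intervals for counting error alone, without the clumping of counts in cells. With 1 animal per sex and 1 table per region, differences were not tested. Each gene has its own probes, so the counts of different genes were not ranked against each other.

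Both filament genes were abundant in female region 1 and close to background in the other regions. Des had 3 counts in male region 0, 0 in male region 1, 10 in female region 0 and 1533 in female region 1. Vim had 2, 0, 6 and 1169 counts in the same order. The highest blank stood at 9, 2, 33 and 46 counts, so both filaments passed it in female region 1 and in no other region. There Des was found in 783 cells, 5.71% of all (5.33 to 6.11), and reached 24 counts in a cell with 78 panel counts. Vim was found in 836 cells, 6.10% (5.70 to 6.51), and reached 10 counts. The highest blank of that region was found in 0.328% of cells. Cells at 5 or more counts numbered 63 for Des and 16 for Vim, with no expected number set beside either.

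The kinase gene Dmpk was the member seen above blanks in most regions. It had 3 counts in male region 0, 3 in male region 1, 63 in female region 0 and 1764 in female region 1, and it passed the highest blank in each but male region 0. In male region 1 that margin is 3 counts against 2. In female region 1 it was found in 1144 cells, 8.35% (7.89 to 8.82).

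The calcium genes were sparse, mostly 1 count to a cell. Cacna1c, the channel pore, had 2, 0, 2 and 98 counts in the same order of regions. Slc8a1, the exchanger that works without potassium, had 0, 0, 5 and 157 counts. Slc24a3, the potassium-dependent exchanger, had 12, 1, 16 and 145 counts. In female region 1 these stood at 6.88, 11.02 and 10.2 times the mean blank, and 89 of 93, 151 of 154 and 141 of 143 cells with the gene held a single count. Slc24a3 alone passed the highest blank in male region 0, but 1 cell held 6 of its 12 counts. A count of 0, as for Slc8a1 in male region 0, was read as allowing about 3 counts, there 9.84 per 10000 panel counts. Its exact upper limit is 3.69 counts, 12.1 per 10000.

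**Figure D1:**
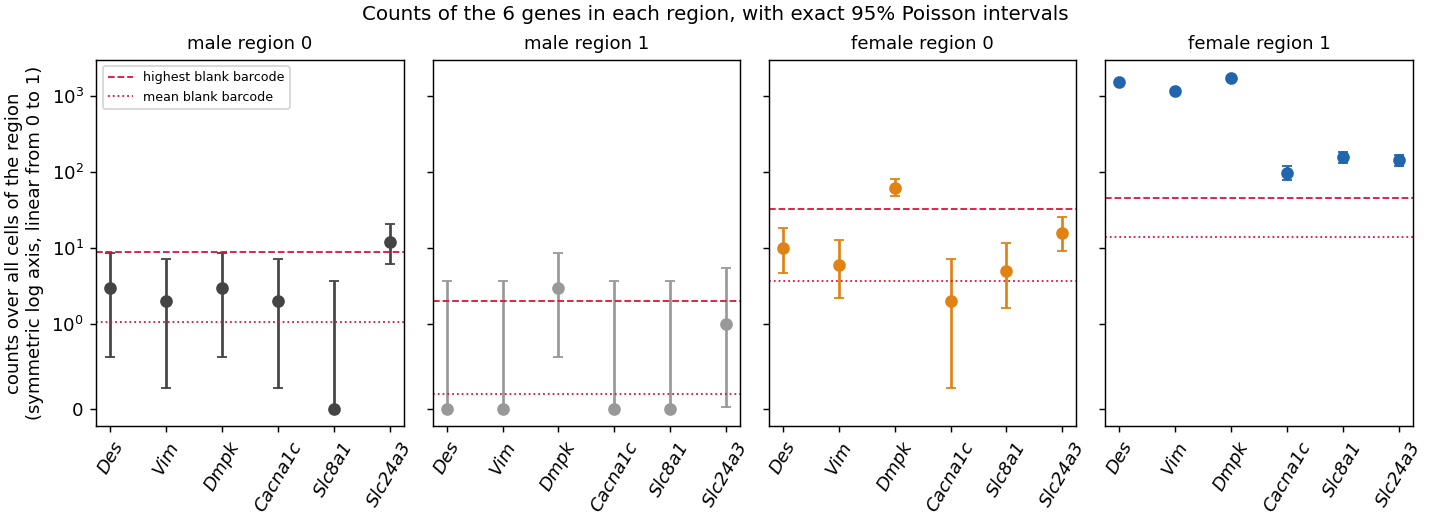
Counts of each gene over all cells of a region (vertical symmetric log axis) with exact 95% Poisson intervals. Dashed and dotted lines give the highest and the mean blank barcode. In female region 1 the highest blank lies below all 6 genes, and in each other region 1 gene exceeds it.

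Above the highest blank lay 6 of the 6 genes in female region 1, where 66.4% of panel genes did. In male region 0, male region 1 and female region 0 it was 1 gene each, Slc24a3, Dmpk and Dmpk, beside 32.9%, 37.9% and 16.4% of panel genes. Without the cell that held most of its counts, Slc24a3 was no longer above in male region 0, nor Dmpk in male region 1.

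The 63 Dmpk counts of female region 0 were not in cells with a Des count. They lay in 54 cells with a median of 2 panel counts, at most 3 Dmpk counts to a cell. Of the 10 Des counts of that region 0 fell in those cells, and likewise 0 of 6 Vim, 0 of 2 Cacna1c and 0 of 5 Slc8a1 counts. Each of these totals is under the region's highest blank of 33 counts. The cells held the synaptic gene Snap25 at 1940 per 10000 of their other counts, against 1117 in cells without Dmpk (ratio 1.74, 1.12 to 2.58), and the mucin gene Muc6 at 1119 against 1454 (ratio 0.770, 0.428 to 1.28). Dlgap1 was higher as well (ratio 1.81, 1.07 to 2.87), while Col12a1 (0.808) and Fgfr1 (0.368) were lower with intervals that span 1. Snap25 and Muc6 were picked after their values were seen, and no share of panel genes was set beside them. These cells held only 134 other counts, so a 0 there is a weak bound. The 7 cells with Slc24a3 in male region 0 held no count of any of the other 5 genes, in 186 other counts.

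Per 10000 panel counts, 5 of the 6 genes were at least 2-fold higher in female region 1 than in female region 0, with intervals that exclude 1, beside 25% of panel genes. Dmpk stood at 384 (366 to 402) against 147 (113 to 188), a ratio of 2.61 (2.03 to 3.42). Slc8a1 stood at 34.2 against 11.7, a ratio of 2.93 (1.23 to 9.15), and Cacna1c at 21.3 against 4.66, a ratio of 4.57 (1.23 to 38.3). Des and Vim had larger ratios, 14.3 and 18.2. Slc24a3 was the exception, at 31.6 (26.6 to 37.1) against 37.3 (21.3 to 60.6), a ratio of 0.846 (0.504 to 1.52). Per cell its ratio turned to 4.19 in favour of region 1. In female region 0 the counts of each gene but Dmpk are under the highest blank.

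Between the animals, 4 of the 6 genes (Des, Vim, Dmpk and Slc8a1) passed the same bar in favour of the female, beside 23.6% of panel genes. The mean over the animals was 158 ± 211 per 10000 for Des, 120 ± 162 for Vim and 190 ± 246 for Dmpk (SD, n = 2). Cacna1c stood at 5.51 in the male and 19.9 in the female (ratio 3.61, 0.974 to 30.2). Slc8a1 had 0 male and 162 female counts, 32.3 per 10000 in the female, and the exact interval of its ratio begins at 3.14. Had the male held 3 counts, 8.26 per 10000, the ratio would be 3.90. Slc24a3 stood close in the animals, 35.8 in the male and 32.1 in the female (33.9 ± 2.66, SD, n = 2; ratio 0.895, 0.509 to 1.72), while per cell its ratio was 7.32 (4.16 to 14.04). With female region 1 left out, the only gene past the bar was Dmpk, at 8.89-fold (3.86 to 25.1).

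Within the male, region 0 and region 1 could not be told apart for any of the 6 genes, where 3.57% of panel genes were higher in region 0. Dmpk had 3 counts in each, 9.84 and 51.5 per 10000, with a ratio of 0.191 (0.0256 to 1.43). The summed male counts of the 6 genes, 0 to 13 each, are too few for a finer statement.

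In female region 1, cells with several filament counts mostly held 1 filament and not the other. Des without Vim was found in 680 cells, Vim without Des in 733, both in 103 and neither in 12191. Among the 241 cells with 3 or more counts of the pair, 130 held Des alone, 59 held Vim alone and 52 held both (21.6%, 16.6 to 27.3). No expected share was set beside these values, so they do not show that the filaments exclude each other. The 103 cells with both were 0.329 of 1 prediction and 1.27 of another, both given below. Cells with both were deeper, with a median of 10 panel counts, against 4 in Des-only and 6 in Vim-only cells. Whether neighbouring cells were merged by the segmentation was not tested.

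**Figure D2:**
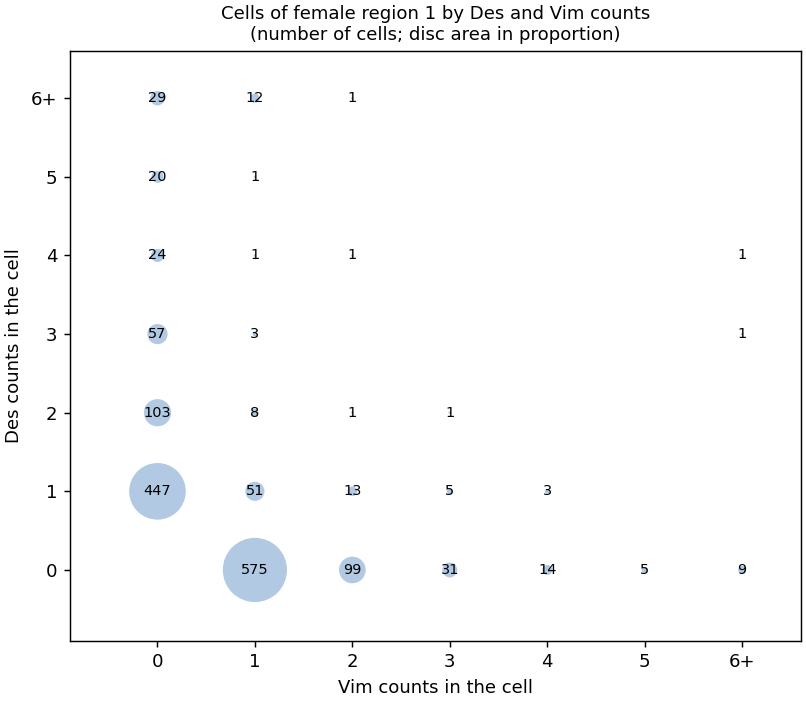
Number of cells of female region 1 at each pair of Des (vertical axis) and Vim (horizontal axis) counts, with disc area in proportion to the number. Cells with neither gene are left out and counts of 6 or more are drawn at 6. Most cells lie on the axes, 447 with 1 Des and no Vim and 575 with 1 Vim and no Des, and 51 held 1 count of each.

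The level of Vim hardly differed between cells with and without Des. Per 10000 of the other counts, Vim stood at 331 in the 783 cells with Des and 255 in cells without it, a ratio of 1.29 (1.09 to 1.54). Cells without Des are mostly cells of other kinds, epithelium included, so this sets Des cells against the whole section. With 5 or more Des counts, Vim was at 191 (107 to 315), below the 398 (325 to 482) of cells with 1 Des count.

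Dmpk and the calcium genes Cacna1c and Slc24a3 went with Des. In cells with Des, 4 of the 5 other genes were at least 2-fold higher than in cells without it, beside 15.1% of panel genes. Dmpk stood at 1675 per 10000 in cells with Des and 248 in cells without, a ratio of 6.76 (6.15 to 7.44). Cacna1c stood at 79.4 and 15.3, a ratio of 5.18 (3.34 to 7.91). Slc24a3 stood at 90.2 and 25.9, a ratio of 3.48 (2.37 to 5.03), and Slc8a1 at 68.7 and 31.4, a ratio of 2.18 (1.43 to 3.24).

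Among the 6 genes, Des had the highest ratio in cells chosen by Dmpk, by Cacna1c, by Slc24a3 or by Slc8a1, though under 2-fold in the last. Cells chosen by Dmpk held Des at 7.41 times the level of cells without it (6.68 to 8.22), Cacna1c at 2.85 times and Slc24a3 at 2.51 times, so 3 of 5 genes passed 2-fold, beside 16.5% of the panel. Cells chosen by Cacna1c held Des at 4.72 times (3.92 to 5.65), Dmpk at 3.34 times and Slc24a3 at 2.90 times (1.23 to 5.88), again 3 of 5, beside 6.47%. Cells chosen by Slc24a3 held Des at 2.59 times, Dmpk at 2.203 times and Vim at 0.526 times (0.339 to 0.780), so 2 of 5 passed, beside 2.16%. Cells chosen by Slc8a1 held Des at 1.405 times (1.14 to 1.72) and Dmpk at 0.810 times (0.629 to 1.03), and 0 of 5 passed, beside 2.88%. Cells chosen by Vim held Dmpk at 1.27 times (1.12 to 1.44) and Des at 1.16 times, with 0 of 5 past the bar, beside 9.35%.

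Des was found together with Dmpk in 320 cells and with Vim in 103, and whether that is more or fewer than predicted rested on how the prediction was made. A first prediction gives each gene its share of the region's counts in every cell, according to the panel counts of that cell. Under it, 8 of the 15 pairs were found in fewer cells than predicted and 0 in more, beside 44.4% and 0.264% of 3789 panel pairs with at least 5 predicted cells. The panel median was 0.566 observed over predicted, so a ratio under 1 is the rule on this panel. Des and Dmpk met in 320 cells against 416 predicted (0.770, 0.688 to 0.859), above 75.9% of panel pairs. Des and Vim met in 103 cells against 313 (0.329, 0.268 to 0.399), above 18.5% of panel pairs. Cacna1c and Slc24a3 met in 8 cells against 5.18 (1.54, 0.667 to 3.04).

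A second prediction, chosen after seeing the data, uses the observed share of cells with each gene among cells alike in counts of the remaining genes. Its panel median was 1.07. Of the 15 pairs, 10 were found in more cells than predicted and 0 in fewer, beside 14.3% and 7.26% of 2674 panel pairs. The panel pairs had at least 5 predicted cells, while the 15 were not filtered. Cacna1c with Slc24a3 (2.36 predicted, among the 10) and with Slc8a1 (2.76) fell under that limit. Des and Dmpk then stood at 3.46 (3.09 to 3.86), above 99.9% of panel pairs. Des and Cacna1c stood at 3.82 (2.63 to 5.37) on 33 cells, and Des and Slc24a3 at 3.06 (2.196 to 4.15) on 41 cells. Dmpk and Cacna1c reached 2.55 and Dmpk and Slc24a3 2.31. Des and Vim turned to 1.27 (1.04 to 1.54), above 70.2% of panel pairs. The pairs of Vim with Slc24a3 (1.01) and of Slc8a1 with Cacna1c (0.726, on 2 cells) were the lowest of the 15.

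**Figure D3:**
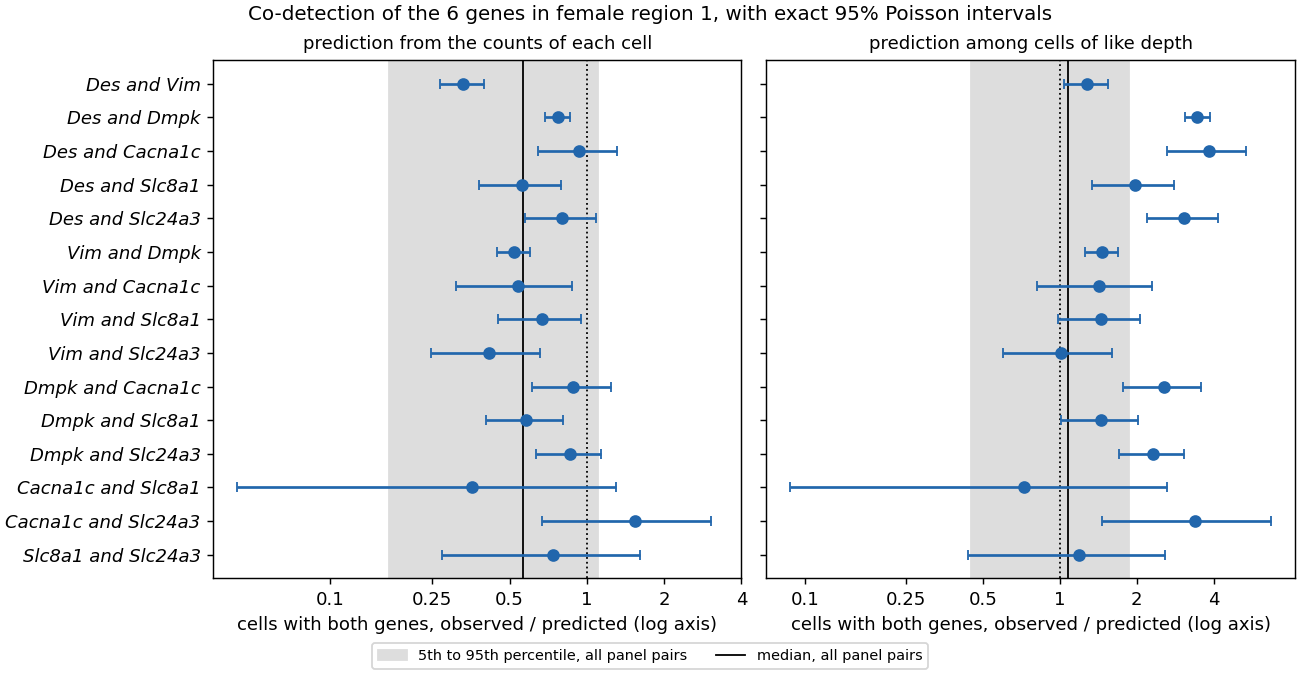
Cells of female region 1 with both genes of a pair, observed over predicted (log axis), with exact 95% Poisson intervals, for the prediction from each cell's counts (left) and among cells of like depth (right). The grey band is the 5th to 95th percentile and the line the median of all panel pairs. Des with Dmpk lies inside the band on the left, at 0.770, and above it on the right, at 3.46.

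Set against each other, Des-only cells were the richer in Dmpk, Slc24a3 and Cacna1c, and Slc8a1 did not separate the groups. Des and Vim chose these cells and were left out of the totals. Dmpk had 636 counts in Des-only and 170 in Vim-only cells, 1833 (1694 to 1982) and 326 (279 to 379) per 10000, a ratio of 5.62 (4.74 to 6.70). Slc24a3 had 35 and 11 counts, a ratio of 4.78 (2.37 to 10.4), and Cacna1c 29 and 10, a ratio of 4.36 (2.06 to 10.03). Slc8a1 had 23 and 22 counts, a ratio of 1.57 (0.837 to 2.96). Thus 3 of the 4 genes were at least 2-fold higher with an interval that excludes 1, beside 7.97% of panel genes. The highest blank had 9 counts in Des-only and 5 in Vim-only cells, below each of these counts.

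In cells with at least 10 panel counts the Dmpk ratio was 7.50 (5.87 to 9.67). Those counts include Des, Vim and Dmpk, and the cells for thinning were kept on counts that include Dmpk. With all genes counted 134 Des-only and 202 Vim-only cells reached 10, against 91 and 154 with Des and Vim left out. Cells rich in these genes pass such filters more readily, so neither setting isolates depth. In cells thinned to 10 counts, Dmpk was found in 61 of 91 Des-only cells (67.0%, 56.4 to 76.5) and in 23 of 154 Vim-only cells (14.9%, 9.71 to 21.6). Before thinning and at all depths these shares were 40% (36.3 to 43.8) and 17.7% (15.0 to 20.7). Slc24a3 was found in 9 and 2 of the thinned cells, Cacna1c in 5 and 2, and Slc8a1 in 5 and 8. After thinning, Cacna1c no longer passed the bar (ratio 4.23, 0.693 to 44.4), so 2 of the 4 genes did, Dmpk and Slc24a3. Des-only cells did not hold all of the Dmpk signal, since 36.1% of its counts lay in them and 46.1% in cells with neither filament, where its level was 243 (226 to 260). The share of all panel counts was 10.3% in Des-only and 73.0% in neither.

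Dmpk also followed the number of Des counts. Its level was 254 (238 to 270) in cells without Des, 907 (795 to 1030) at 1 count, 2651 (2218 to 3143) at 2, 2586 (2198 to 3024) at 3 to 4 and 3232 (2846 to 3654) at 5 or more. The intervals at 2 counts and above overlap, so no order is read among them. Cacna1c stood at 15.7 without Des, 42.1 (21.01 to 75.3) at 1 count and 140 (69.9 to 250) at 5 or more. By Vim counts, Dmpk was at 392 without Vim, 673 (515 to 865) at 2 counts and 214 (58.3 to 548) at 5 or more, the last on 4 counts in 16 cells. Cacna1c had 0 counts in the 54 cells with 3 to 4 Vim counts, which hold 494 other counts.

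**Figure D4:**
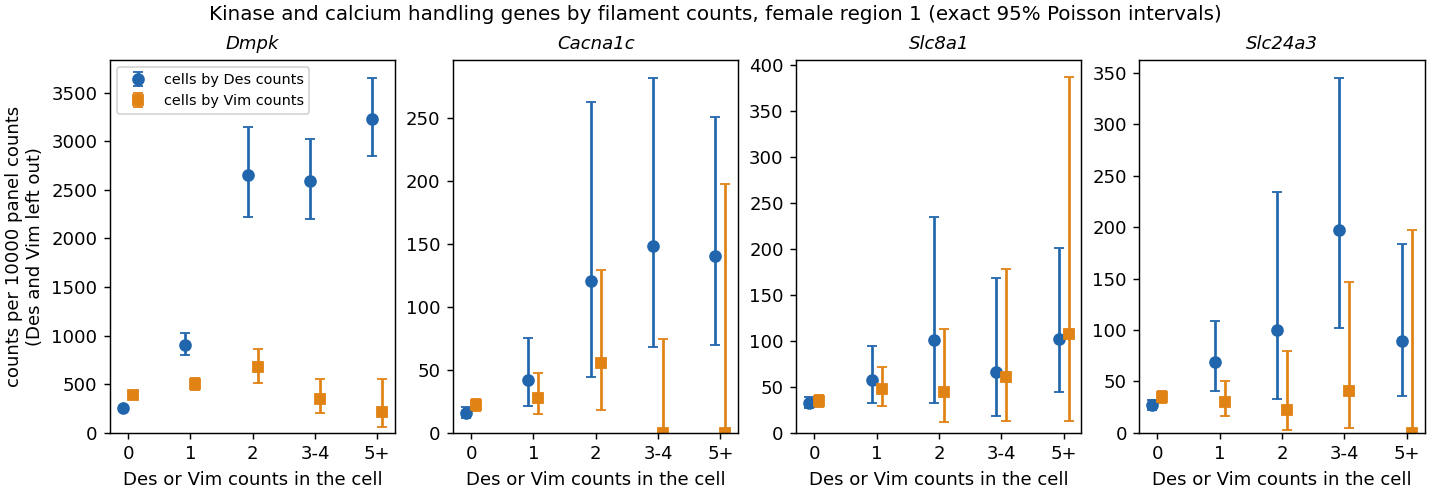
Levels per 10000 panel counts (Des and Vim left out) of Dmpk, Cacna1c, Slc8a1 and Slc24a3 in cells of female region 1 binned by Des (blue circles) or Vim (orange squares) counts, with exact 95% Poisson intervals. Dmpk goes from 254 without Des to 3232 at 5 or more Des counts, and stays at or below 673 in every Vim bin.

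Of the other panel genes, the rule for named genes gave 5 that were higher in Vim-only cells. These were Kcnn4, a calcium-activated potassium channel, at 3.90 times the Des-only level (2.196 to 7.44), the basement membrane collagen Col18a1 at 3.33 times (1.61 to 7.74), the stretch-gated channel Piezo1 at 3.07 times (1.67 to 6.10), the chromatin remodeller Chd9 at 2.46 times and the nuclear receptor Ppard at 2.41 times. In all, 7.25% of panel genes were lower in Des-only cells. In the other direction no further gene had the 50 counts that the rule asks for, and 8 with fewer counts passed the bar. These were Sncg (8.64), Gfra1 (7.01), Tubb3 (6.01), Grid1 (3.26), Sema3e (3.01), Ano6 (2.51), Gfra2 (2.25) and Dscam (5 counts against 0). The Vim-only counts of Sncg (4), Gfra1 (3), Tubb3 (3) and Dscam (0) are under the highest blank of 5 there, so their ratios are set by background. The 5 Des-only Dscam counts are under the blank of 9 too. The members Slc24a3 and Cacna1c, at 4.78 and 4.36, also have fewer than 50 counts, so passing the bar on few counts is not particular to the members. The fibroblast marker Pdgfra was at 121 (87.3 to 164) in Des-only and 207 (170 to 250) in Vim-only cells, and the matrix gene Fn1 at 1329 and 1634, both under 2-fold.

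Markers of other cell types were present in both groups. The epithelial markers Aqp8 and Slc26a3 summed to 675 (591 to 767) per 10000 in Des-only and 926 (846 to 1013) in Vim-only cells, against 1878 in cells with neither filament. The 5 enteric neuron markers of the panel summed to 92.2 (63.1 to 130) and 42.2 (26.4 to 63.9), and the 5 glial markers to 86.5 (58.3 to 123) and 53.7 (35.7 to 77.6), with 0 of 5 at 0 in either group and list. Their part in the differences of Dmpk, Cacna1c and Slc24a3 was not tested. Desmin was the only one of 7 fixed smooth muscle markers on the panel, and no fixed marker of endothelium, immune cells or interstitial cells of Cajal was on it, so the labels muscle and stroma rest on few genes.

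By the ratio of observed to predicted cells over all 13707 cells, the genes most like each member were ranked. The first prediction was used, whose panel median was 0.566. For Des these were Slc24a3 (0.797), Dmpk (0.770) and the scramblase gene Ano6 (0.709), among 58 ranked genes with at least 100 counts. Dmpk was most like Slc24a3 (0.857), Des (0.770) and the TGF-beta co-receptor Tgfbr3 (0.666). Cacna1c had Slc24a3 (1.54), the guidance factor Slit3 (1.26) and Ano6 (1.17), on 8, 13 and 6 cells. Slc24a3 had the semaphorin gene Sema5a (1.12), Ano6 (1.08) and the stretch-gated channel Piezo2 (1.02), on 7 to 9 cells. Vim had Col18a1 (0.992), Piezo1 (0.870) and Slit3 (0.861), on 47 to 75 cells. Slc8a1 had the lipid transporter gene Abca8b (1.35) and the synaptotagmin Syt4 (1.29), on 8 and 9 cells. In each list the intervals of the genes named overlap under this prediction. Among cells of like depth the order of the genes named changed in each list. Des then stood at 3.46 with Dmpk, 3.06 with Slc24a3 and 2.75 with Ano6. Dmpk stood at 3.46 with Des, 2.31 with Slc24a3 and 1.80 with Tgfbr3. No full ranking was made among cells of like depth. Sparse genes and shared depth bear on these ratios, which are a description.

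In cells chosen by the colonocyte genes Aqp8 and Slc26a3, the filaments, the kinase and the channel were low per panel count, while Slc8a1 was not. These cells held 3 or more counts of that pair and no Pdgfra, and numbered 589, with a median of 17 panel counts. They were set against 12585 cells that met neither rule, with a median of 1. Aqp8, Slc26a3 and Pdgfra were left out of the totals. Des stood at 17.9 (10.04 to 29.6) against 554 (526 to 584) per 10000, a ratio of 0.0324 (0.0181 to 0.0536). Vim stood at 35.9 against 393, a ratio of 0.0912 (0.0612 to 0.131), and Dmpk at 62.2 against 620, a ratio of 0.1003 (0.0746 to 0.132). Cacna1c had 5 counts, a ratio of 0.180 (0.0569 to 0.436). These 4 of the 6 genes were at least 2-fold lower, beside 35% of panel genes, and 0 of 6 were higher, beside 13.1%.

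Per 10000 panel counts, Slc8a1 was level in the epithelial cells, at 41.9 (29.2 to 58.2) against 40.8 (33.3 to 49.4), a ratio of 1.03 (0.680 to 1.52). These cells held 22.3% of its counts, against 0.978% of Des and 2.95% of Dmpk counts and 28.9% of all panel counts. Slc24a3 stood at 23.9 against 43.5, a ratio of 0.550 (0.324 to 0.891). Per cell, which favours these deeper cells, Slc8a1 stood at 7.19 (4.76 to 10.6), and Cacna1c and Slc24a3 turned to 1.26 (0.398 to 3.05) and 3.85 (2.26 to 6.24). Vim and Dmpk stood at 0.638 and 0.702 per cell, no longer 2-fold lower, and Des at 0.227. The highest blank of the epithelial cells had 25 counts, 29.9 per 10000. The 15 Des, 5 Cacna1c and 20 Slc24a3 counts are below it, while 30 Vim, 35 Slc8a1 and 52 Dmpk counts are above it. With that blank in place of the counts under it, the Des ratio was 0.0539 (0.0348 to 0.0800) and the Cacna1c ratio 0.898 (0.551 to 1.42), so 3 of the 6 genes were 2-fold lower.

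Cells chosen by Pdgfra, the growth factor receptor of gut fibroblasts, held counts of both filaments as a group, though each was found in a minority of them. There were 472 with at least 1 Pdgfra count and fewer than 3 of Aqp8 and Slc26a3, with a median of 6 panel counts. Vim stood at 441 (368 to 524) per 10000 against 393 (369 to 419) in cells of neither rule, a ratio of 1.12 (0.925 to 1.35). Des stood at 341 (277 to 415) against 554, a ratio of 0.615 (0.497 to 0.755), and Dmpk at 414 (343 to 494) against 620, a ratio of 0.667 (0.549 to 0.803). Slc8a1, Cacna1c and Slc24a3, on 14, 8 and 8 counts, had ratios of 1.18, 0.828 and 0.634 with intervals that span 1. Of the 6 genes 0 passed 2-fold in either direction, beside 0.73% of panel genes higher and 0.73% lower. The other genes named by the rule were Col18a1, 2.00-fold higher (1.28 to 3.04), and Ano6, 2.14-fold lower (1.01 to 5.44).

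Des and Dmpk were lower still in cells richer in Pdgfra. With 2 or more Pdgfra counts the Des ratio went to 0.2501 (0.120 to 0.461) and the Dmpk ratio to 0.224 (0.107 to 0.412), while Vim stayed at 1.16 (0.796 to 1.64). For the cells with at least 1 Pdgfra count, Des and Dmpk turned to 1.87 (1.51 to 2.29) and 2.02 (1.66 to 2.43) per cell and not per count. Those Pdgfra cells are deeper than the cells of neither rule. No per-cell value was taken at 2 or more Pdgfra counts.

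Against the epithelial cells, the Pdgfra cells held 19.01 times the Des level (10.99 to 35.2), 12.3 times Vim (8.20 to 18.95), 6.65 times Dmpk (4.76 to 9.39) and 4.61 times Cacna1c (1.33 to 17.9). These 4 of 6 genes passed the bar, beside 34.3% of panel genes, and 0 of 6 were lower, beside 9.49%, with Slc8a1 and Slc24a3 at 1.15 each (0.573 to 2.196 and 0.439 to 2.73). The epithelial Des and Cacna1c counts in these ratios are under the highest blank of that group. With the blank in their place Des was 11.4-fold higher (7.29 to 18.5), and the 8 Cacna1c counts of the Pdgfra cells gave a level below it. The neuropilin gene Nrp2 (18.5 times) and Fn1 (11.02 times) were the furthest of the other genes named by the rule. The 7 epithelial Nrp2 counts are under the highest blank of 25 too, so its ratio is set by background, while the 120 of Fn1 are above it. The 61 cells that met both rules had a median of 29 panel counts and held Des at 28.5 (7.76 to 72.9) and Vim at 49.9 (20.0 to 103), nearer to the epithelial than to the Pdgfra cells. The highest blank of these 61 cells had 6 counts, 42.7 per 10000. The 4 Des counts are below it and the 7 Vim counts barely above it.

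**Figure D5:**
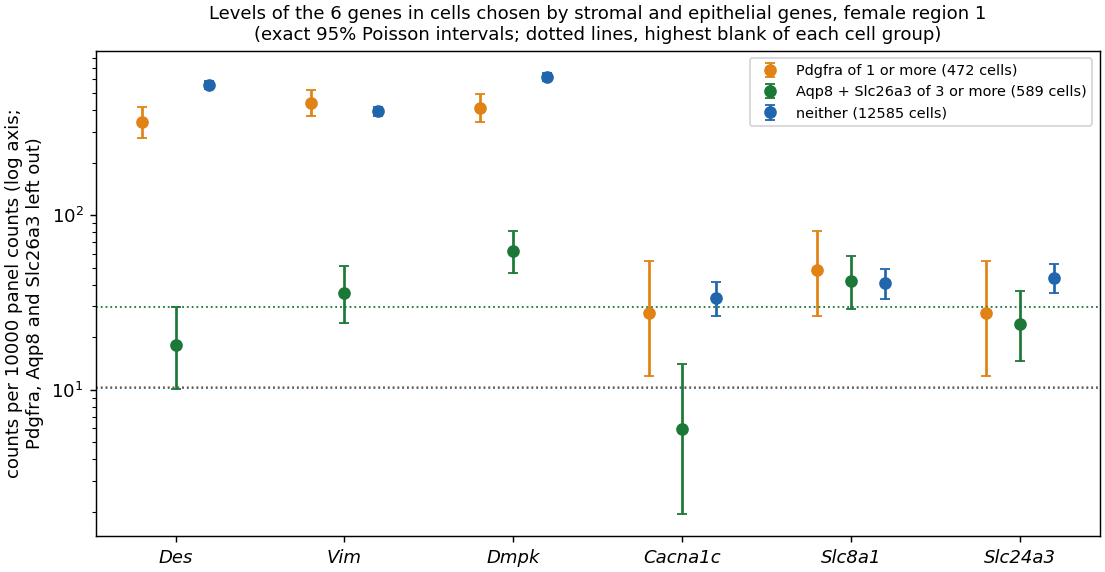
Levels per 10000 panel counts (log axis; Pdgfra, Aqp8 and Slc26a3 left out) of the 6 genes in female region 1, in cells with Pdgfra, cells with 3 or more Aqp8 and Slc26a3 counts and cells with neither, with exact 95% Poisson intervals and the highest blank of each group as dotted lines, 2 of which nearly coincide. Des, Vim and Dmpk are lowest in the epithelial cells, at 17.9, 35.9 and 62.2, and Slc8a1 is between 40.8 and 48.2 in all 3 groups.

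In the other regions the same rules found few cells. Pdgfra was found in 17 cells of male region 0, 12 of male region 1 and 5 of female region 0, and 0 of the 6 genes had a count in them. The rule on Aqp8 and Slc26a3 found 0, 0 and 1 cells. Des-only cells numbered 3, 0 and 10 and Vim-only cells 2, 0 and 5, and they held 0 counts of Dmpk, Cacna1c, Slc8a1 and Slc24a3. The contrasts above therefore describe 1 section of 1 animal.

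The wider lists of muscle and calcium genes were thinly covered. Of 17 listed smooth muscle contraction genes 0 were on the panel. Of 29 listed calcium and cation genes 3 were, the stretch-gated channels Piezo1 and Piezo2 and the potassium channel Kcnn4, and 3 of 3 were at least 2-fold lower in Des-only than in Vim-only cells (median ratio 0.326, against 1.03 over all genes compared, of which 7.25% were lower). In the epithelial cells 3 of 3 were lower as well (median 0.150, against 0.611 over all genes, of which 35% were lower). Their counts there, 4 for Kcnn4, 10 for Piezo1 and 17 for Piezo2, are below the highest blank of those cells, 25 counts. Of 7 stroma and matrix genes on the panel 0 were higher and 1 lower in Des-only cells (median 0.813, against 1.03), beside 7.97% and 7.25% of all genes. In Pdgfra cells 1 of 6 was higher and 0 lower (median 1.14, against 0.926), beside 0.73% of all genes each way. Of 10 listed intermediate filament genes only Gfap, the glial filament, was on the panel, with 2 and 1 counts in Des-only and Vim-only cells.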

How the data were processed

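Transcripts of 140 genes and 40 blank barcodes were counted per segmented cell in 4 tables, 2 regions of each of 2 animals. The deposited values are raw counts, whole numbers per cell, from 10 µm sections with stained cell boundaries, per the labels' protocols. The submitters' processing notes name Seurat. What it was used for, its version and how transcripts were decoded: not given in the sources used here. No doublets were removed. The 6 genes, the cell rules and the gene lists were chosen with earlier results of these data known.

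Counts were summed over cells and given per 10000 panel counts, without the genes that chose the cells. Levels have exact Poisson intervals, and ratios and shares have exact binomial ones. A gene was counted as higher or lower at 2-fold or more with a 95% interval that excludes 1. Named genes are the members and up to 5 others in each direction with at least 50 counts. Likeness used the 3 highest co-detection ratios under the first prediction. One gene that this rule gave is not reported here. Scripts were tested on simulated data. Software was Python 3.11.15, numpy 2.4.6, pandas 2.3.3, scipy 1.17.1 and matplotlib 3.10.9. Thinning to 10 counts, other thresholds, per-cell scaling and leaving out an animal were alternatives.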

Additional observations from a re-analysis of the deposited data

How the results depend on the processing

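Depth limits most values: outside female region 1 the 6 genes had 0 to 63 counts each, and ratios there are wide. The number of genes above the bar stayed at 6 in female region 1 under each bar tried. In male region 0 it went from 1 to 0 without the top cell of each gene. In male region 1 it went from 1 to 0 under the upper Poisson limit of the mean blank, with cells of at least 10 counts and without the top cells. In female region 0 it went from 1 to 3 under the Poisson limit and to 0 with deep cells.

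Co-detection moved most with the prediction. Among cells of like depth, a choice made after seeing the data, Des and Vim turned from 0.329 to 1.27, Des and Dmpk from 0.770 to 3.46, Des and Slc8a1 to 1.97, Vim and Dmpk to 1.46, Vim and Cacna1c to 1.42, Vim and Slc8a1 to 1.45, Vim and Slc24a3 to 1.01 and Dmpk and Slc8a1 to 1.45; pairs below prediction went from 8 to 0 and above it from 0 to 10. The cause was not tested. With at least 2 counts of each gene, Des and Vim stood at 0.146 and Des and Dmpk turned to 1.73, with 2 pairs below and 1 above. In cells with at least 10 counts the 2 pairs stood at 0.232 and 0.436.

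Dmpk in Des-only over Vim-only cells was 10.2 with 2 or more filament counts, 4.03 per cell, 7.50 in deep cells and 8.65 after thinning. The deep and the thinned cells were kept on counts that include Dmpk. Vim in Pdgfra over other cells was 0.797 with cells of both rules kept, 3.40 per cell and 1.42 with all regions summed, and 1.30 without the male and 0 without the female, on 2 counts. Genes lower in Pdgfra cells went from 0 to 2 with those cells kept or with 2 or more Pdgfra counts. Per cell, which favours the deeper groups, 4 genes were higher in Pdgfra cells, with Des turned to 1.87 and Dmpk to 2.02. With the highest blank in place of lower epithelial counts, also chosen after seeing the data, Des was at 0.0539 of other cells. In epithelial cells, per cell, Des was at 0.227, Cacna1c turned to 1.26 and Slc24a3 to 3.85, with 2 genes higher and 1 lower in place of 0 and 4. Per cell, Dmpk was 12.96-fold higher in female region 1 than region 0 and 180-fold higher in the female, with 6 genes higher in place of 4. Without female region 1 it was 8.89-fold, with 1 gene higher. Over the remaining combinations of value and setting, 66 for main results and 117 for single genes stayed within the interval or count limit of the reported value, and 45 for single genes moved past it, some across 1 where the reported interval spans 1 or the fold is under 2. The male alone gave no value for co-detection, for Des-only against Vim-only cells or for the epithelial cells.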
